A study of Saccharomyces cerevisiae with 9 samples.

Results

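The genes described here handle copper in budding yeast: they reduce it, take it up, sense it, buffer it and pass it on inside the cell. The set was defined by function as the 10 open reading frames CTR1, CTR2, CTR3, MAC1, CUP2, CUP1-1, FRE1, FRE7, CCC2 and ATX1, all 10 of which had 1 probe set each among 5667 genes measured. Expression was compared between 3 groups of cultures of strain background BY4741, a laboratory strain of mating type a derived from S288C. All groups grew in YPD, a rich medium, at day 5 after inoculation, and they differed in glucose and drug. Calorically restricted cells (CR) had 0.5% glucose and no drug, rapamycin cells (RM) had 2% glucose with 100 nM rapamycin, an inhibitor of the TOR kinase complex, and non-restricted cells (NR) had 2% glucose and no drug. Each group had 3 biological replicates, hybridised to 1 Affymetrix GeneChip Yeast 2.0 array each.

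Copper is an essential cofactor and a toxic ion, and yeast controls it with a pair of sensors that work in opposite conditions. Mac1 turns on surface reductases and high-affinity uptake when copper is scarce, and Cup2, also called Ace1, turns on metallothioneins when copper is abundant. Inside the cell, chaperones hand copper to its users: Atx1 to the Golgi pump Ccc2, which supplies the iron-uptake oxidase Fet3, Ccs1 to the superoxide dismutase Sod1, and Cox17 to cytochrome c oxidase in mitochondria.

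The values are log2 values per probe set and array, as deposited, in which 1 unit is a factor of 2. A gene was called changed at a Benjamini-Hochberg adjusted p under 0.05 over all 5667 genes in limma, a linear model that pools the spread of the 3 groups and moderates it across genes. Errors are standard deviations (SD, n = 3) for group means, standard errors (SE) for log2 fold changes, and 95% intervals from the same fit. Signals of different probe sets are not on a common scale, so fold changes were taken only within a gene, and a rank or level among probe sets is given below only to place a signal in the range of the array. Cultures were measured in bulk, so a change in every cell and a change in the mixture of cells cannot be told apart.

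The replicates of the groups were not equally close. Over all genes, the correlation between arrays of a group ranged over 0.997 to 0.998 in CR, 0.980 to 0.995 in RM and 0.928 to 0.977 in NR, and the median SD per gene was 0.06 in CR, 0.16 in RM and 0.29 in NR. The fit uses 1 spread per gene over all groups, so the closer CR arrays enter the error of RM over NR. The calls of RM over NR lean on that, and a fit of the RM and NR arrays alone called fewer genes, as given at the end. NR replicate 3 lay farthest from its group, and some of the calls, signs or fold changes that turn on it are given with and without it. Others are not given below. Among these are calls gained without it, for MRS3 in CR over RM and for STE2, MFA1 and MFA2 in RM over NR. The signs of GEF1 and FRE5 in RM over NR, neither being called, also changed without it. Of loci deleted in whole or in part in BY4741, the probe sets of LEU2, MET17 and URA3 read 0.71 to 2.01 on all arrays, while that of HIS3 read 5.38 to 6.83. Which part of HIS3 its probes cover was not tested. The 5 measured markers of mating type a read 4.68 or higher on all arrays. Of 4 markers of the other mating type, the pheromone genes MF(ALPHA)1 and MF(ALPHA)2 read 2.32 to 6.62, whereas the receptor gene STE3 and the agglutinin gene SAG1 read 4.63 to 8.28. Under CR relative to NR, 4 of the 5 markers of mating type a fell and 0 rose, and 2 of the 4 others rose and 2 fell, where 33.6% of all genes fell and 35.3% rose. The calls of STE2 and SAG1 (adjusted p 0.0449 each) were lost in several fits that left out 1 array. That of MF(ALPHA)1 was lost without CR replicate 1 or CR replicate 2 (adjusted p 0.0513 and 0.0572). That of MF(ALPHA)2 was lost without CR replicate 1, NR replicate 1 or NR replicate 2 (adjusted p 0.0530 to 0.0771). The part of these markers in the results below was not tested.

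Low glucose divided the copper genes. Under CR, the plasma membrane transporter CTR1, the metallothionein CUP1-1 and the sensor MAC1 fell, and the vacuolar transporter CTR2 and the sensor CUP2 rose. Thus 5 of 10 were called, 3 lower and 2 higher, where 68.9% of all genes were called, 33.6% lower and 35.3% higher. The share called was therefore no larger among copper genes than in the genome. Their median log2 fold change was -0.22, against 0.02 over all genes. Values of CR and NR did not overlap for 7 of 10 copper genes, against 75.5% of all genes.

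Rapamycin gave 1 call among the copper genes. CUP2 was higher in RM than in NR, where 37.0% of all genes were called, 17.6% higher and 19.4% lower. The median log2 fold change of the copper genes was 0.01, against -0.05 over all genes. Values of RM and NR did not overlap for 2 of 10, CTR2 and CUP2, against 43.5% of all genes. The direct comparison of CR over RM called 6 of 10 copper genes, CTR2, CUP2 and ATX1 higher under CR and CTR1, MAC1 and CUP1-1 lower, where 56.1% of all genes were called, 29.7% higher and 26.4% lower. Values of CR and RM did not overlap for 7 of 10, against 75.9% of all genes. The comparisons share arrays, since each group enters 2 of them, so their values are given side by side and not as support of each other.

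**Figure D1:**
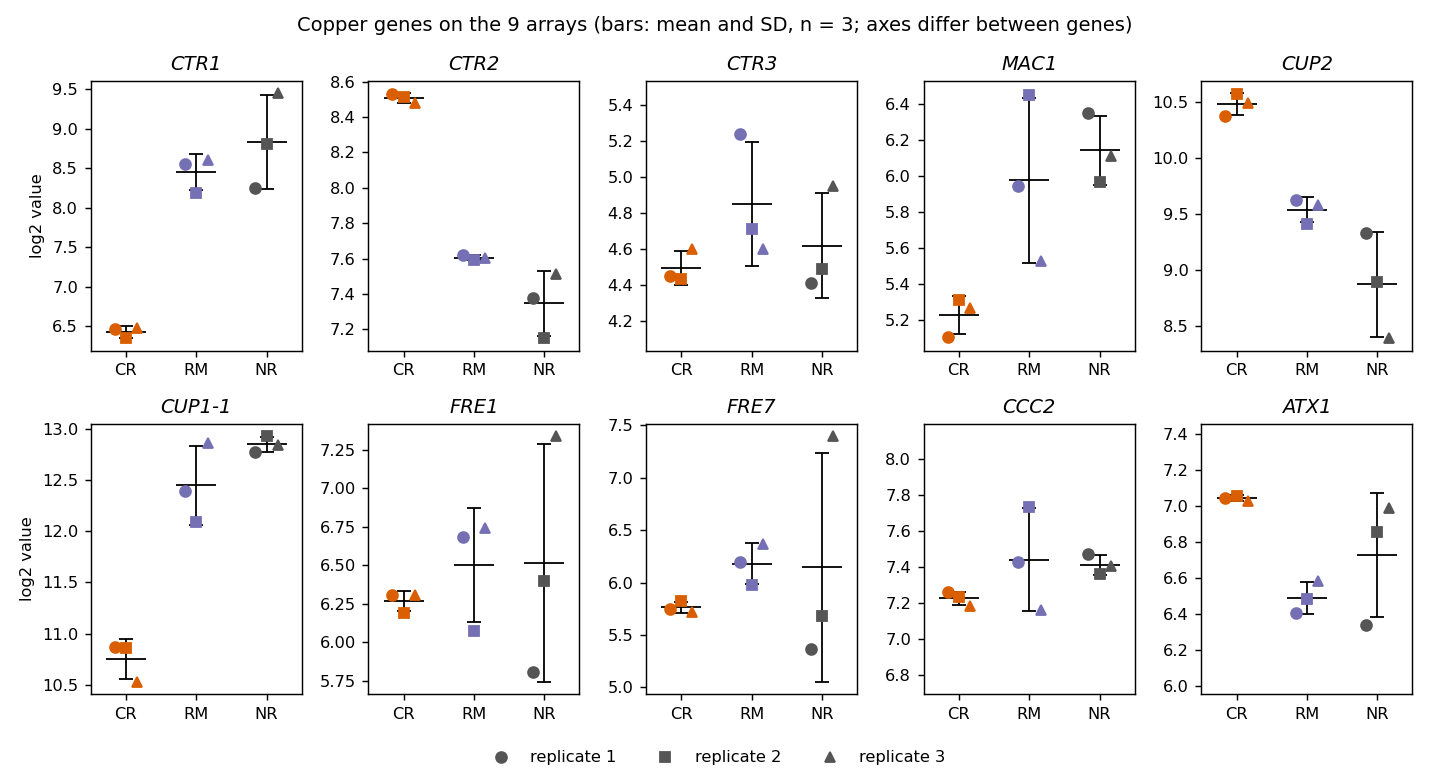
Log2 value (vertical axis, with its own range per gene) of the 10 copper genes on each array, for CR, RM and NR from left to right; symbols are replicates 1 to 3, the long bar is the group mean and the whiskers its SD (n = 3). CTR1 lies at 6.34 to 6.48 in CR, below all RM and NR arrays, and the NR arrays of FRE7 run from 5.37 to 7.39.

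The uptake transporters went separate ways. CTR1 (YPR124W) encodes the high-affinity copper transporter of the plasma membrane. Its log2 values were 6.46, 6.34 and 6.48 in CR, 8.56, 8.19 and 8.61 in RM, and 8.26, 8.80 and 9.45 in NR. The CR arrays lay below all others with a gap of over 1 unit, and RM and NR overlapped. CTR1 was 5.31-fold lower under CR than NR (log2 fold change -2.41, SE 0.26, adjusted p 3.97e-05 in limma), and 212 of the other genes had a lower log2 fold change in that comparison. It was 4.06-fold lower under CR than RM (log2 fold change -2.02, adjusted p 0.000173). Between RM and NR the difference was -0.39 with an interval of -0.98 to 0.20 and adjusted p 0.269, a value that the NR arrays decide. Without NR replicate 1, the lowest of them, it was -0.68 with adjusted p 0.0272, and without NR replicate 3, the highest, it was -0.08 with adjusted p 0.753. CTR1 was 4.29-fold lower under CR than NR without NR replicate 3.

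CTR2 (YHR175W), the transporter that releases stored copper from the vacuole, had log2 values of 8.53, 8.51 and 8.48 in CR, 7.62, 7.59 and 7.60 in RM, and 7.38, 7.15 and 7.51 in NR. The 3 groups were separate and stood in the order CR, RM, NR from high to low. CTR2 was 2.24-fold higher under CR than NR (log2 fold change 1.16, SE 0.12, adjusted p 2.8e-05) and 1.87-fold higher under CR than RM (adjusted p 0.000188). The step between RM and NR was 0.26, with adjusted p 0.116 on all arrays and a step of 0.34 with adjusted p 0.0305 without NR replicate 3.

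CTR3 (YLR411W) is a further high-affinity plasma membrane transporter, whose promoter carries a transposon in many laboratory strains. Its mean log2 value over the 9 arrays, 4.65, was in the lowest 25% of genes. Group means were 4.49 ± 0.09 in CR, 4.85 ± 0.34 in RM and 4.62 ± 0.29 in NR (SD, n = 3), with overlapping arrays and no call. The interval of CR over NR was -0.57 to 0.32, that of RM over NR -0.22 to 0.68, and that of CR over RM -0.80 to 0.09. Without NR replicate 3, CR over NR was 0.04, against -0.13 on all arrays, and neither was called. No detection calls were used, so whether the probe set measured transcript above background was not tested.

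The sensors moved in opposite directions under CR. MAC1 (YMR021C), the activator for scarce copper, had log2 values of 5.11, 5.31 and 5.27 in CR, 5.94, 6.45 and 5.53 in RM, and 6.35, 5.96 and 6.11 in NR. The CR arrays lay below all others, and RM was the most scattered group. MAC1 was 1.89-fold lower under CR than NR (log2 fold change -0.92, SE 0.22, adjusted p 0.00413) and 1.68-fold lower under CR than RM (adjusted p 0.0148). Between RM and NR the difference was -0.17, with an interval of -0.65 to 0.32. Without replicate 1 of all groups the adjusted p was 0.076 for CR over NR and 0.116 for CR over RM, and without CR replicate 1 alone it was 0.0552 for CR over RM. For CR over RM it was also 0.0754 without replicate 2 of all groups and 0.0609 after the values were quantile normalized again.

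CUP2 (YGL166W), the activator for abundant copper, had log2 values of 10.37, 10.57 and 10.49 in CR, 9.62, 9.41 and 9.58 in RM, and 9.33, 8.89 and 8.39 in NR. The groups did not overlap and stood in the order CR, RM, NR from high to low. CUP2 was 3.04-fold higher under CR than NR (log2 fold change 1.61, SE 0.21, adjusted p 0.00012), and 352 of the other genes had a higher log2 fold change. It was 1.92-fold higher under CR than RM (adjusted p 0.00402), with adjusted p 0.0847 without replicate 2 of all groups. It was 1.59-fold higher under RM than NR (log2 fold change 0.67, SE 0.21, adjusted p 0.0354).

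This last call was close to the limit. Without NR replicate 3, the lowest array, the log2 fold change of RM over NR was 0.42, with adjusted p 0.0487. Leaving out any other single array gave an adjusted p above 0.05, apart from NR replicate 1, although the log2 fold change stayed between 0.40 and 0.90 under all alternatives run.

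**Figure D2:**
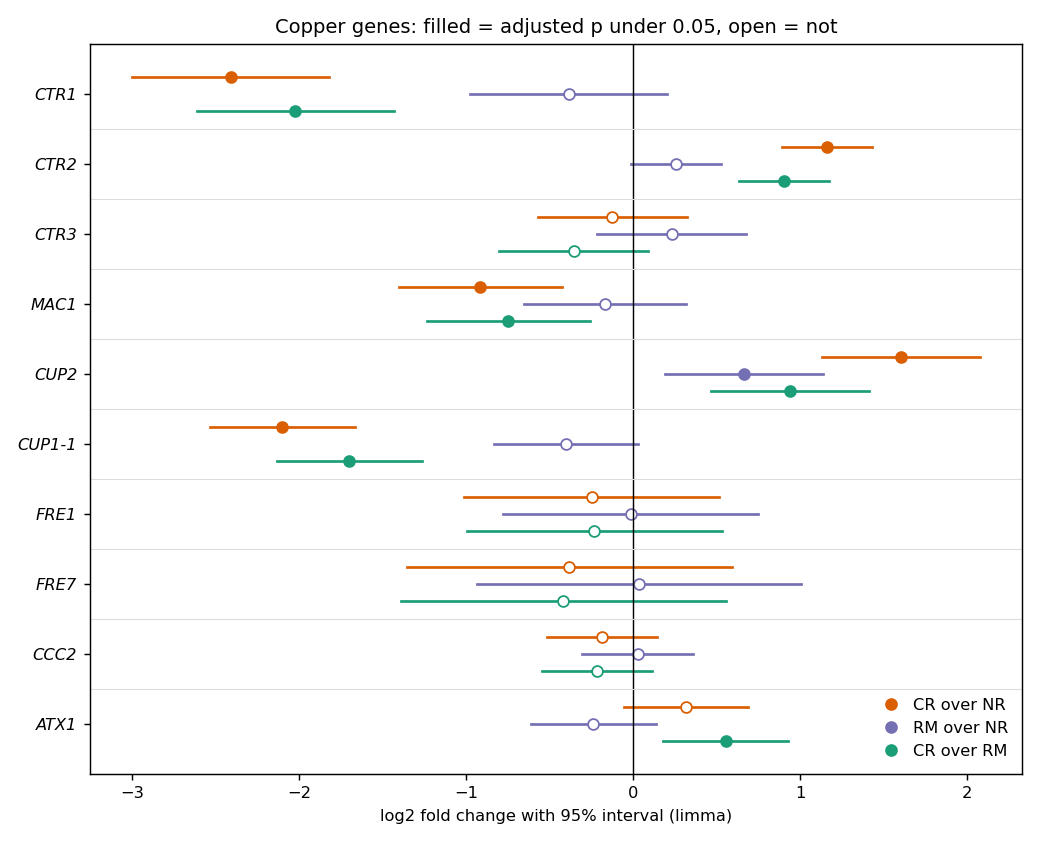
Log2 fold change with its 95% interval from limma (horizontal axis) for each copper gene from top to bottom within a gene in CR over NR, then RM over NR, then CR over RM; filled points have an adjusted p under 0.05. CTR1 and CUP1-1 lie left of -1.5 in both comparisons of CR, CTR2 and CUP2 right of 0.5, and the RM over NR interval of CUP2, 0.19 to 1.14, is the only one of that comparison with a call.

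CUP1-1 (YHR053C) encodes metallothionein, the small protein that binds and buffers excess copper. Its probe set has a name ending in _s_at, which on this array type marks probes shared by several transcripts, and the near-identical copy CUP1-2 has no row in the table, so the signal may hold both. Log2 values were 10.87, 10.86 and 10.53 in CR, 12.40, 12.09 and 12.86 in RM, and 12.78, 12.93 and 12.85 in NR. CR lay below all other arrays, and RM and NR overlapped. CUP1-1 was 4.29-fold lower under CR than NR (log2 fold change -2.10, SE 0.19, adjusted p 1.48e-05) and 3.25-fold lower under CR than RM (log2 fold change -1.70, adjusted p 7.75e-05).

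Between RM and NR, CUP1-1 differed by -0.40 (interval -0.83 to 0.03, adjusted p 0.13). Without RM replicate 3, which read within the range of NR, the difference was -0.61 with adjusted p 0.0273. The probe set stood at the top of the arrays' range: 0, 1 and 1 genes had a higher value in NR, 10, 25 and 2 in RM, and 123, 123 and 202 in CR. A signal near its ceiling understates a difference, and whether this one was saturated was not tested.

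CUP2 was thus highest under CR, where CUP1-1, the gene it activates, was lowest. Of 4 measured Cup2 targets and related copper-buffering genes, CRS5 and SLF1 rose under CR relative to NR, 0 fell, and SOD1 and HAA1 were not called, where 35.3% of all genes rose. CRS5, a further copper-binding metallothionein activated by Cup2, had log2 values of 12.03, 12.02 and 11.97 in CR, 11.56, 11.60 and 11.65 in RM, and 11.32, 10.97 and 10.14 in NR. CRS5 was 2.30-fold higher under CR than NR (adjusted p 0.00207) and 1.73-fold higher under RM than NR (adjusted p 0.0353), and CR over RM was not called (0.40, adjusted p 0.196). The RM over NR call was lost (adjusted p 0.0567 to 0.0867) without any 1 of the CR arrays, any 1 of the RM arrays or NR replicate 2, and CR over RM was called without NR replicate 3 (adjusted p 0.00923).

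No call was made for the surface reductases in any comparison. FRE1 (YLR214W) encodes the main reductase that prepares copper and iron for uptake. Its log2 values were 6.30, 6.19 and 6.31 in CR, 6.68, 6.07 and 6.74 in RM, and 5.81, 6.40 and 7.34 in NR. The NR arrays spanned the whole range of the other groups. The interval of CR over NR was -1.01 to 0.52, and that of RM over NR -0.78 to 0.75, so for CR over NR a difference as large as 2-fold could not be told from none. Without NR replicate 3 the log2 fold change of CR over NR was 0.16 (adjusted p 0.536), against -0.25 on all arrays, and that of RM over NR was 0.40 (adjusted p 0.201), against -0.02 on all arrays.

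FRE7 (YOL152W), a reductase of the same family induced through Mac1 when copper is low, had log2 values of 5.75, 5.82 and 5.72 in CR, 6.20, 5.98 and 6.37 in RM, and 5.37, 5.68 and 7.39 in NR. The result for this gene rests on 1 array. On all arrays RM over NR was 0.04 (interval -0.94 to 1.01). Without NR replicate 3 it was 0.66, a 1.58-fold rise with adjusted p 0.00843, and CR over NR changed sign between -0.38 on all arrays and 0.24 without it, neither being called. CR over RM was -0.42, with adjusted p 0.437 on all arrays and 0.0184 without NR replicate 3, which enters that comparison only through the pooled spread. In a fit of the CR and RM arrays alone it was 0.0109.

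NR replicate 3 was the highest of the NR arrays for 6 of 10 copper genes, against 37.6% of all genes. NR replicate 1 was the lowest of the NR arrays for 6 of 10, against 36.9% of all genes, so the spread did not lie with NR replicate 3 alone. NR replicate 3 exceeded the mean of the other NR arrays by 0.92 for CTR1, 0.50 for CTR3, 1.24 for FRE1 and 1.87 for FRE7, all of which Mac1 activates. It also did so by 0.40 for ATX1 and 0.25 for CTR2. CUP2 differed there by -0.72, and CUP1-1 and CCC2 by -0.01 each. MAC1 itself differed there by -0.04. Of the other Mac1 targets listed, REE1 differed there by -1.95, with log2 values of 9.20, 10.72 and 8.02 in NR. IRC7, a beta-lyase, read 4.30 there and 1.80 to 2.48 on the other 8 arrays, close to the deleted loci other than HIS3, so whether it was above background on those was not tested. The mating type a genes also read higher there, by 1.29 to 2.11, and the part of either in the other was not tested.

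**Figure D3:**
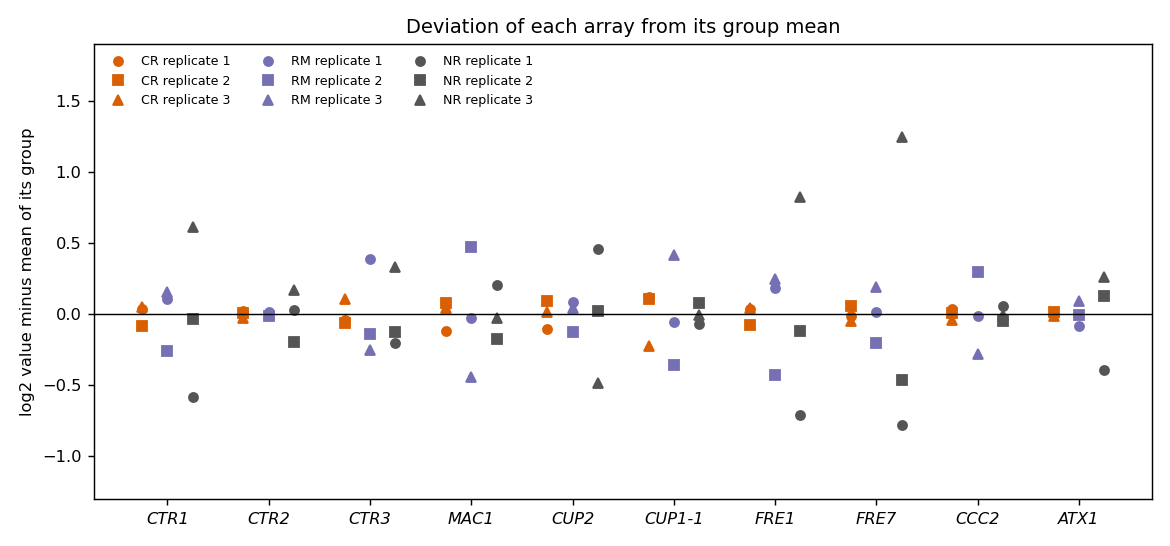
Difference between the log2 value of each array and its group mean (vertical axis) for the 10 copper genes, with CR, RM and NR from left to right within a gene and symbols for replicates 1 to 3. NR replicate 3 stands highest for FRE7 at 1.25, FRE1 at 0.82 and CTR1 at 0.61, while CR arrays lie within 0.22 of their means.

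The Golgi branch had 1 call over the 3 comparisons. ATX1 (YNL259C), the chaperone that carries copper to Ccc2, had log2 values of 7.05, 7.06 and 7.03 in CR, 6.40, 6.48 and 6.58 in RM, and 6.34, 6.85 and 6.99 in NR. CR lay above every other array, by a narrow margin over NR. ATX1 was 1.47-fold higher under CR than RM (log2 fold change 0.55, SE 0.17, adjusted p 0.0173), a call lost (adjusted p 0.052 to 0.125) without replicate 2 of all groups, without CR replicate 1, without CR replicate 2 or without RM replicate 1. CR over NR was 0.32 (adjusted p 0.114), and 0.45 with adjusted p 0.0245 without NR replicate 3. RM over NR was -0.24 (adjusted p 0.28). It was -0.43 with adjusted p 0.012 without NR replicate 1, and -0.11 with adjusted p 0.601 without NR replicate 3.

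CCC2 (YDR270W), the copper pump of the late Golgi, had log2 values of 7.26, 7.23 and 7.19 in CR, 7.43, 7.74 and 7.16 in RM, and 7.47, 7.36 and 7.40 in NR. CR lay just below NR, and RM overlapped both. No difference was called, with intervals of -0.52 to 0.14 for CR over NR, -0.30 to 0.36 for RM over NR and -0.55 to 0.12 for CR over RM. A 2-fold change lay outside all 3 intervals.

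Other genes that use or move copper were taken as 7 lists of 37 genes in all, of which 36 were measured. Under CR, 20 of the 36 rose and 10 fell relative to NR, where 35.3% of all genes rose and 33.6% fell. Under RM, 8 rose and 6 fell relative to NR, where 17.6% of all genes rose and 19.4% fell. Without NR replicate 3 the counts were 20 and 11 for CR over NR, where 36.2% of all genes rose and 34.4% fell in that fit. For RM over NR they were 8 and 7, where 18.0% of all genes rose and 20.2% fell. The directions below follow the route of copper through the cell.

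Of 7 genes for copper enzymes, their loading and copper-dependent iron uptake, 5 rose under CR relative to NR and 1 fell, where 35.3% of all genes rose and 33.6% fell. The 5 were FET3, FTR1, FET5, FTH1 and CCS1. FET3, the multicopper oxidase of iron uptake that Ccc2 supplies, had log2 values of 8.84, 8.90 and 8.87 in CR, 8.07, 7.89 and 8.07 in RM, and 7.56, 7.22 and 7.30 in NR. The groups did not overlap, and FET3 was 2.84-fold higher under CR than NR (adjusted p 7.64e-06), 1.57-fold higher under RM than NR (adjusted p 0.00512) and 1.81-fold higher under CR than RM (adjusted p 0.000315). Its partner permease FTR1 was 2.57-fold higher under CR than NR, and it was called in RM over NR only without NR replicate 3 (1.63-fold, adjusted p 0.0279). Under CR relative to NR, the vacuolar oxidase FET5 was 2.64-fold and the vacuolar permease FTH1 2.22-fold higher. The chloride channel GEF1, needed to load copper onto Fet3, was the 1 that fell (1.87-fold, adjusted p 0.00569); it is named after its value was seen. CCC2, whose pump acts upstream of Fet3, had no call, as given above.

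In the superoxide branch, CCS1, the chaperone of Sod1 and counted above, was 2.07-fold higher under CR than NR (adjusted p 0.000135). SOD1 itself had log2 values of 11.69, 11.75 and 11.80 in CR, 11.42, 11.60 and 11.54 in RM, and 11.86, 11.88 and 11.52 in NR, and no comparison called it (log2 fold change -0.01, SE 0.13, for CR over NR). SOD1 was called lower under RM than NR without NR replicate 3 (log2 fold change -0.35, adjusted p 0.0258).

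All 11 genes for copper delivery to mitochondria and assembly of cytochrome c oxidase were called in CR over NR, 6 higher and 5 lower, where 68.9% of all genes were called. Of these, MRS3 lost its call without CR replicate 2, and CMC2 without CR replicate 3. COX17, which carries copper to the assembly sites, had log2 values of 5.90, 5.76 and 5.91 in CR, 7.37, 7.83 and 7.47 in RM, and 8.0, 7.61 and 8.61 in NR. It was 4.64-fold lower under CR than NR (adjusted p 3.43e-05) and 3.25-fold lower under CR than RM (adjusted p 0.000248), with RM and NR overlapping. PIC2, a carrier of copper into mitochondria, was 3.34-fold lower in CR than in NR cells. On the other side, CMC1 was 2.93-fold and COX23 2.90-fold higher under CR than NR, both small proteins of the intermembrane space, while PET191, an assembly factor of cytochrome c oxidase, was 2.58-fold higher under CR than RM. Between RM and NR, 2 of the 11 rose, MRS3 and CMC1, and 2 fell, COX19 and PIC2, where 17.6% of all genes rose and 19.4% fell. The CMC1 call was lost without any 1 of the CR arrays, any 1 of the RM arrays or NR replicate 3, and the PIC2 call without RM replicate 1 or RM replicate 3. COX23 was called lower under RM than NR without NR replicate 3 (-0.46, adjusted p 0.0228). The largest of the 4 differences on all arrays was that of MRS3, a mitochondrial metal carrier, at 1.64-fold.

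**Figure D4:**
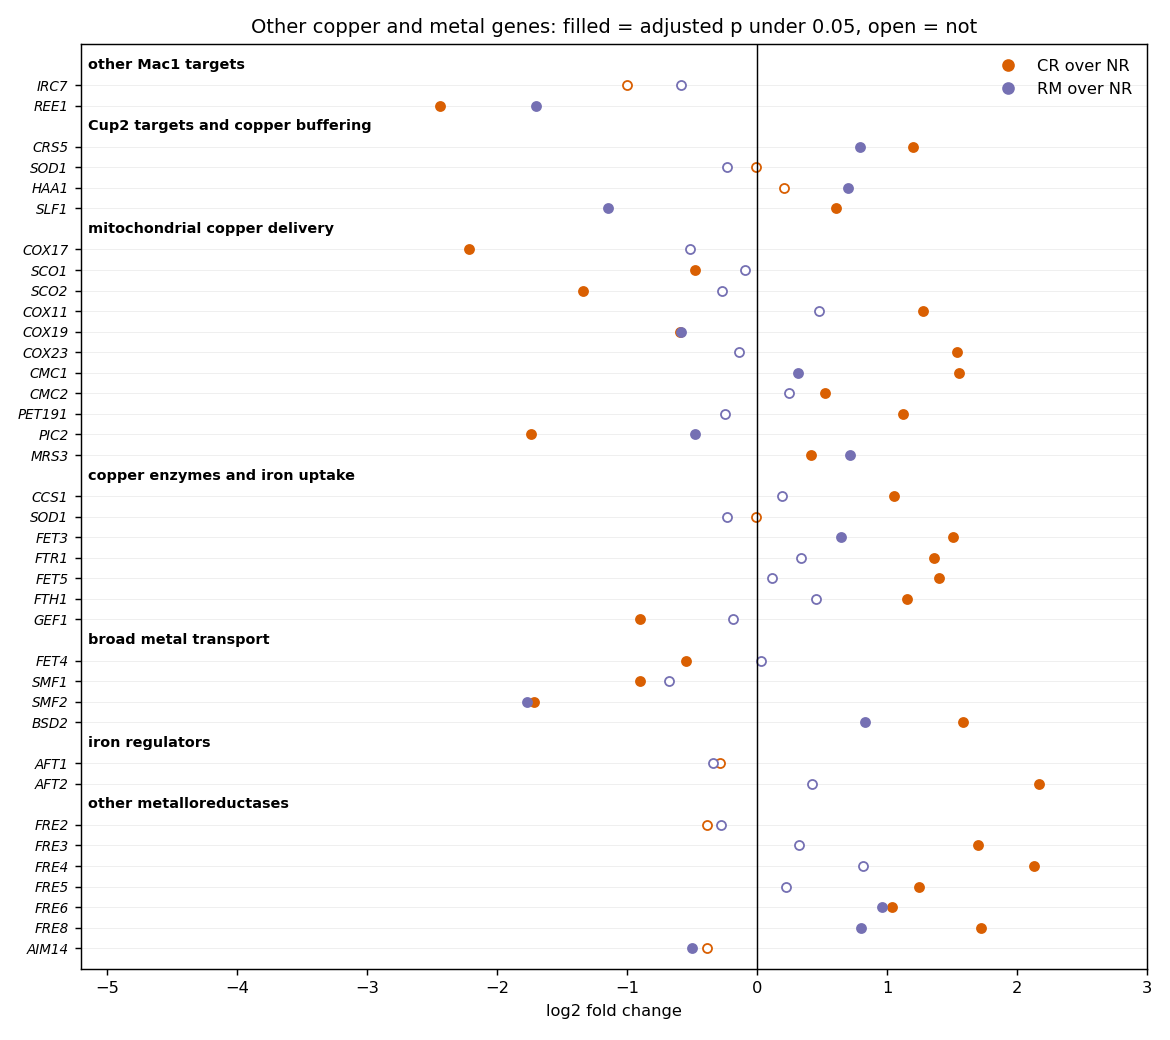
Log2 fold change (horizontal axis) of the 36 measured companion genes, grouped by list, in CR over NR and RM over NR; filled points have an adjusted p under 0.05 in limma, and SOD1 belongs to 2 lists. The mitochondrial delivery genes spread from -2.21 (COX17) to 1.55 (CMC1) in CR over NR, whereas in RM over NR they lie between -0.58 and 0.71.

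Of 7 other members of the reductase family, 5 rose under CR relative to NR and 0 fell, where 35.3% of all genes rose and 33.6% fell. FRE2 and AIM14 were not called there, and FRE2 is named after its values were seen (log2 fold change -0.39, adjusted p 0.0575, and -0.51, adjusted p 0.0129, without NR replicate 3). The largest rises on all arrays were FRE4 at 4.37-fold, FRE8 at 3.30-fold, FRE3 at 3.25-fold and FRE5 at 2.37-fold. Without NR replicate 3 they were 3.10-fold, 2.91-fold, 3.20-fold and 2.01-fold in the same order. The rank of FRE4 thus turned on that array. FRE2, FRE5, FRE8 and AIM14 had mean log2 values over the 9 arrays in the lowest 25% of genes, with FRE5 at 3.21. The same held for FTR1, MRS3 and AFT1. Whether these probe sets measured transcript above background was not tested. FRE6, a vacuolar member, was 2.06-fold higher under CR than NR and 1.95-fold higher under RM than NR (adjusted p 0.00167), and FRE8 was 1.74-fold higher under RM than NR. AIM14 was 1.41-fold lower under RM than NR (adjusted p 0.0431), a call lost without any 1 of the arrays other than NR replicate 1. Of the iron regulators, AFT2 was 4.50-fold higher under CR than NR. AFT1 was not called (log2 fold change -0.28, SE 0.13, adjusted p 0.0809 for CR over NR, and -0.34, adjusted p 0.0718 for RM over NR).

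Of 4 genes for broad metal transport, 1 rose and 3 fell under CR relative to NR, where 35.3% of all genes rose and 33.6% fell, and under RM 1 rose and 1 fell, where 17.6% rose and 19.4% fell. SMF2, an intracellular transporter of manganese and other metals, was 3.29-fold lower in CR cells and 3.41-fold lower in RM cells than in NR cells, and CR over RM was 0.05 with adjusted p 0.72. BSD2, which sends the Smf transporters to the vacuole, was 3.0-fold higher in CR cells and 1.77-fold higher in RM cells than in NR cells. FET4, a low-affinity importer of iron and copper, was 1.46-fold lower under CR than NR. SMF1 was 1.87-fold lower under CR than NR (adjusted p 0.0449), and 1.31-fold lower (adjusted p 0.0161) without NR replicate 3, its highest array. The SMF1 call was lost (adjusted p 0.0628 to 0.104) without any 1 of the CR or RM arrays. Neither SMF1 nor FET4 was called in RM over NR. REE1, also activated by Mac1, was 5.44-fold lower under CR than NR (adjusted p 0.00248) and 3.25-fold lower under RM than NR (adjusted p 0.0332). Without NR replicate 3 the REE1 differences were 8.52-fold and 5.10-fold, and without NR replicate 2 they were 3.34-fold and 1.99-fold, in the same order. The RM over NR call of REE1 was lost (adjusted p 0.0513 to 0.0931) without any 1 of the CR or RM arrays. IRC7, named here only for its value on NR replicate 3, had no call on all 9 arrays. Without that array, IRC7 was called in CR over RM (log2 fold change -0.42, adjusted p 0.0433). Its RM over NR value went from -0.59 on all arrays to 0.10 without NR replicate 3, neither being called. Without NR replicate 1, IRC7 was called in CR over NR (-1.45, adjusted p 0.018).

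On all arrays, SLF1, an RNA-binding protein tied to copper tolerance, was the member of these lists with opposite calls under the treatments. Without NR replicate 3, COX23 also had them, higher in CR over NR (log2 fold change 1.21, adjusted p 4.75e-05) and lower in RM over NR (-0.46, adjusted p 0.0228). SLF1 had log2 values of 6.82, 6.92 and 6.77 in CR, 5.04, 5.17 and 5.05 in RM, and 6.54, 6.11 and 6.05 in NR. SLF1 was 1.52-fold higher under CR than NR (adjusted p 0.00465), 2.21-fold lower under RM than NR (adjusted p 0.000968) and 3.36-fold higher under CR than RM (adjusted p 1.43e-05). HAA1, a relative of Cup2 that responds to weak acids, was 1.62-fold higher under RM than NR (adjusted p 0.00208), and 1.41-fold lower under CR than RM (adjusted p 0.00329).

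The genes whose log2 values followed CTR1 most closely over the 9 arrays were TRM2 (YKR056W), YCH1 (YGR203W) and RPL34A (YER056C-A), with Pearson correlations of 0.996, 0.995 and 0.994. Those closest to CUP1-1 were SSF1 (YHR066W), NSR1 (YGR159C) and NCA3 (YJL116C), with 0.988, 0.987 and 0.987. All 6 had their lowest group mean in CR and their highest in NR. The points share arrays, normalization and the separation of CR from the other groups, so these correlations are descriptions.

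The authors' deposited table gives a fold change and a p-value for each pair of groups, and its fold changes equal the differences of group means used here. The authors' deposited table holds no calls, so a rule set here was applied to it, a fold change of at least 2 and a p-value under 0.05. By that rule 4 copper genes pass in CR over NR, CTR1, CTR2, CUP2 and CUP1-1, where 36.5% of all genes pass. By the same rule on the authors' deposited table, 0 pass in RM over NR, where 7.69% of all genes pass. In CR over RM 2 pass, CTR1 and CUP1-1, where 24.7% of all genes pass. In RM over NR, CUP2 alone among the copper genes had an unadjusted p under 0.05 in limma (0.0109). Its p-value there in the authors' deposited table was 0.0646, from a test that is not named.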

How the data were processed

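Total RNA from 9 cultures was labelled with biotin and hybridised to Affymetrix GeneChip Yeast 2.0 arrays, per the labels' protocols. The deposited log2 values hold 5716 probe sets per array. Per the submitters' processing notes, RMA and Transcriptome Analysis Console 2.0 were used; the role of each, the build and the probe annotation are not given in the sources used here. RMA makes arrays alike in distribution, so a change in total mRNA is not measured. The authors' deposited table also holds a signed fold change, here treated as a score, and a p-value for each pair of groups, whose test is not named; on the log2 scale its fold changes equal differences of group means within 1e-09.

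The first listed probe set stood for each of 5667 open reading frames, 47 of which had more than 1. Symbols were taken by locus tag from RefSeq, assembly R64 (5646 matched). Probe sets absent from the table were not analysed here. The main test was limma 3.58.1 in R 4.3.3 (lmFit, contrasts and eBayes over all genes and 9 arrays, 6 residual and 3.27 prior degrees of freedom, no block). It was tried on simulated arrays with equal spread in all groups, so that trial does not cover the unequal spread seen here. No batch other than the replicate number is given in the sources used here. Same-numbered arrays had deviations from group means correlated at -0.20 to 0.35 and above 0.1 in 1 of 9 combinations, so the numbers were not taken to match cultures across groups. Replicates are biological per the labels; how separate the cultures were is not given. The members and lists were chosen with earlier results of these data known. Every member is named; companion genes are named where called, up to 4 per list and comparison by size, with FET3, SOD1, CCS1, COX17 and AFT1 named whatever their values. CUP1-2 was to be named too and has no value in the table. The precision is limited by the number of arrays.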

Additional observations from a re-analysis of the deposited data

How the results depend on the processing

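Among 22 alternatives to the fit, 21 planned and 1 added after seeing the data (weights per array), 606 of 657 values for single copper genes kept their side of the threshold, 32 lost a call, 19 gained one and 0 called values changed direction. CTR1 and CUP1-1 kept both CR calls and CTR2 and CUP2 their CR over NR call in all that were run; 1 alternative, leaving out the dimmest 25% of genes, gave no value for CTR3. With at least 2-fold required in addition, RM over NR had 0 copper genes called, CR over RM had 2, and the genes called in all fell to 2139 (CR over NR), then 490 (RM over NR), then 1469 (CR over RM). By the fold change and p-value of the authors' deposited table, RM over NR had 0 copper genes, CR over RM had 2, and the genes in all were 2067, 436 and 1399 in the same order; both rules are narrower by construction. With only the arrays of the groups compared, 0 copper genes and 921 genes in all were called in RM over NR, against 1 and 2099 in the main fit. That fit leaves out the closer CR arrays and also has fewer degrees of freedom, and the part of each was not tested. With array weights, RM over NR had 5 copper genes and 3297 genes in all called, and CR over RM had 10 copper genes. Calls over all genes rose with these weights too, as in CR over NR from 3905 to 4639 genes, with 6 copper genes against 5. The 10 is therefore not read as particular to copper genes, and the cause was not tested. Over the fits that left out 1 array or 1 replicate number, copper genes called ranged from 0 to 3 for RM over NR, and for CR over RM from 3 to 7. All genes called for RM over NR ranged from 362 (without replicate 2) to 2729 (without NR replicate 1), with 1265 without replicate 1, 1205 without RM replicate 1 and 1381 without RM replicate 2. Without NR replicate 3, CR over RM called 3 copper genes higher and 4 lower. In that fit 34.4% of all genes were higher and 32.2% lower, against 29.7% and 26.4% in the main fit. Among companion genes in RM over NR, calls were gained without NR replicate 1 for COX11, FTH1, GEF1, SMF1, AFT2 and FRE3, without NR replicate 2 for COX17 and FRE4, and without RM replicate 2 for FRE3. With the replicate block, CR over NR called 5 copper genes and 3878 in all, RM over NR called 1 and 1959, CR over RM called 6 and 3123, and no copper gene changed its call.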

Other observations

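On NR replicate 3 some mating genes also read apart from the other NR arrays. MFA2, which encodes the a-factor pheromone, had log2 values of 8.20, 8.13 and 10.27 in NR, and BAR1, a protease that degrades alpha factor, 5.55, 6.04 and 7.43. MF(ALPHA)1, an alpha-factor gene, read 3.50, 3.50 and 6.62 in the same arrays. SMF1 read 5.78, 6.09 and 7.46. These values were picked after they were seen, and no test was made on them. SAG1, a further gene of mating, differed there by -0.12.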
